A study of Homo sapiens with 2 samples.

Results

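DNA transposon names in the repeat tables were read at similar levels in feeder-free extended pluripotent stem cells (ffEPSCs) and in the embryonic stem cells (ESCs) they came from. The set was every repeat name that starts with Tigger, Charlie, HSMAR, Cheshire, Zaphod, Arthur, Kanga, Looper, Ricksha, MADE or ORSL, and it held 123 of 5833 names in both tables. The 2 groups were ffEPSCs, converted from the human ESC line H9, and unconverted H9 ESCs. H9 is an established line, so both groups are 1 cell line, and no genetic change, agent or time of conversion is named in the labels. Each group was 1 deposited sample, with 25 ffEPSC cells and 16 ESC cells sequenced one by one with Smart-seq2, which copies polyadenylated RNA along its full length and amplifies it without molecular barcodes. With 1 sample per state and cells that are not replicates, no test between states was possible, and all values below describe these cells.

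DNA transposons are mobile elements that move by cut and paste: a transposase binds the inverted repeats at the ends of the element, excises it and inserts it elsewhere. In the human genome none is known to move any more, and the copies are fossils that lie mostly in introns, untranslated regions and between genes, where they are transcribed as part of other RNAs. Tigger elements are relatives of pogo, and HSMAR elements are mariners, both within the Tc1/mariner superfamily, to which the Tc2-like Kanga elements also belong. Charlie and Cheshire elements, and the Tip100 types Zaphod, Arthur and ORSL, are hAT elements. Looper is a piggyBac element and Ricksha a Mutator-like one. MADE1 is a short, palindromic derivative of HSMAR1 that carries no transposase, and it is known as the source of many hairpins of the miR-548 microRNA family.

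Sequences of this microRNA family are shown for the palindrome that marks MADE1-like elements. That the family stems from MADE1 is background, and which element copy lies at these positions was not examined. The first line is the miR-548m hairpin (RefSeq, GRCh38.p14, chrX:95063141-95063226, minus strand), with the mature microRNA in capitals. Its 86 bases hold a perfect inverted stretch of 29 bases. The other lines are mature microRNAs with the seed, bases 2 to 8, in capitals: miR-548b from chr6:119069062-119069119 (minus strand) and miR-548c-3p from chr12:64622569-64622590 (plus strand). Of 55 mature miR-548 names in that table, 11 share the seed of miR-548b-5p. MicroRNAs themselves were not measured in these libraries.
miR-548m hairpin: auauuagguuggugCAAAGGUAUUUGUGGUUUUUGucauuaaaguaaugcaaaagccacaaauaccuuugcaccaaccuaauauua
miR-548b-5p: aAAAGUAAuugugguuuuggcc
miR-548b-3p: cAAGAACCucaguugcuuuugu
miR-548c-3p: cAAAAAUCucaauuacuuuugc

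Repeat counts summed to 179248893 in the ffEPSC library (5018790 to 9825753 per cell) and 129041480 in the ESC library (4560140 to 11088400 per cell), and the DNA transposon names took 2614642 and 1741251 of them. A single name, the small-subunit ribosomal RNA, held 44.1% of ffEPSC and 51.2% of ESC repeat counts, so every level scaled to the total repeat counts (repeat CPM) moves with it. Cell names carried a set number of unstated meaning: ffEPSC cells were in sets 1 (3 cells), 2 (9), 3 (2) and 4 (11), and ESC cells in sets 1 (7) and 3 (9), and 0 cell names were present in both libraries. Markers of pluripotent cells were read in every cell (POU5F1, NANOG, SOX2, DNMT3B and LIN28A together at 1540 to 3586 CPM of gene counts in ffEPSC cells and 498 to 2605 CPM in ESC cells). The sum of 4 markers of extended or naive cells (DNMT3L, KLF4, DPPA3 and TFAP2C) was 23.3 to 1381 CPM in ffEPSC cells and 0.105 to 39.5 CPM in ESC cells. Of 7 fibroblast or feeder markers 5 were listed, at 0.137 to 88.8 CPM in ffEPSC cells and 75.4 to 172 CPM in ESC cells. Most of the pooled ESC sum was TAGLN (12.5 CPM in ffEPSCs and 47.1 in ESCs) and S100A4 (0.460 and 34.2). COL1A1 and COL1A2 were also lower in ffEPSCs, and POSTN was higher (0.898 and 0.505). For neuroectoderm 3 of 4 were listed, at 0 to 9.11 CPM in ffEPSC cells and 29.4 to 175 CPM in ESC cells. Most of the pooled ESC sum of these was FABP7 (1.03 CPM in ffEPSCs and 62.6 in ESCs). MAP2 was at 0.0160 and 9.87 CPM, and PAX6 at 0.0802 and 0.354 CPM. Trophoblast and endoderm markers (2 of 4 listed for each) reached at most 16.9 and 15.5 CPM in ffEPSC cells and 24.5 and 28.5 CPM in ESC cells. The part of these markers in the transposon levels was not tested.

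As a class, the DNA transposon names stood at 14587 repeat CPM in ffEPSCs and 13494 repeat CPM in ESCs. The log2 ratio of ffEPSC over ESC was 0.11 (95% interval 0.110 to 0.115, for counting error only, since amplified reads are not independent molecules). Per cell the class ran from 9699 through a median of 14238.5 to 27571 repeat CPM in ffEPSC cells, and from 7958 through 14392 to 23758 repeat CPM in ESC cells. The cells of both states covered almost the same range, and the medians were in the opposite order to the pooled levels. An ffEPSC cell was above an ESC cell in 54% of all pairs of cells.

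The direction depended on the scale. As a share of all counts on transposable element and satellite names, which leaves out ribosomal RNA and simple repeats, the class made up 3.51% in ffEPSCs and 3.85% in ESCs, a log2 ratio of -0.13. Per cell this share was 2.96% to 4.03% with a median of 3.44% in ffEPSC cells, and 3.31% to 4.70% with a median of 3.80% in ESC cells. The ffEPSC cells were lower on this scale, with overlap. In each of the 4 ffEPSC sets the pooled share (3.73%, 3.59%, 3.67% and 3.30% in sets 1 to 4) was below that of both ESC sets (3.84% in set 1 and 3.85% in set 3). In ESC set 1 this rested in part on cells B1 (4.70%) and B3 (4.61%), which were among the 4 ESC cells lowest in POU5F1. The other cells of that set ran from 3.31% to 3.77%, a range that holds the pooled shares of ffEPSC sets 1 to 3. Transposable elements and satellites as a whole took 41.5% of repeat counts in ffEPSCs and 35.1% in ESCs, a log2 ratio of 0.24 by which the scales differ.

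**Figure D1:**
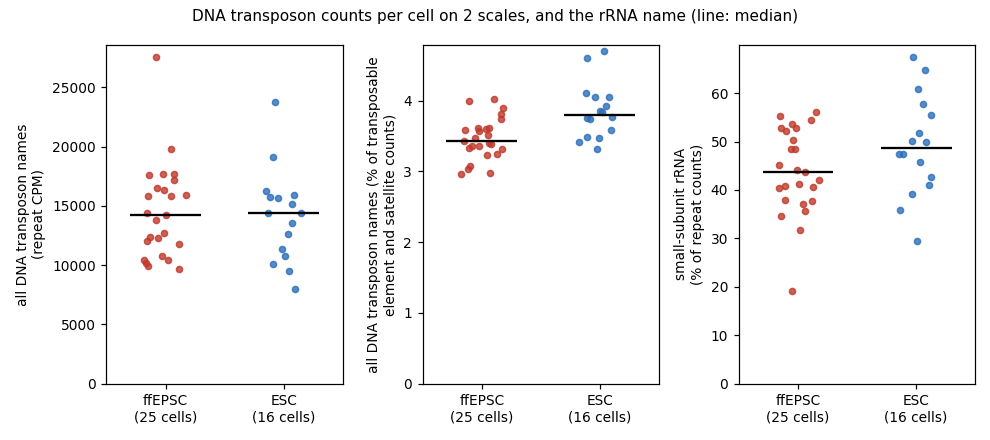
Each point is 1 cell and each line a median, for the summed DNA transposon names in repeat CPM (left), the same counts as a percent of transposable element and satellite counts (middle) and the small-subunit ribosomal RNA name as a percent of repeat counts (right). The medians lie at 14238.5 in ffEPSC and 14392 in ESC cells on the left, and at 3.44% in ffEPSC and 3.80% in ESC cells in the middle.

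Other dispersed repeats moved with the class. The L2 and MIR names (14 names, ancient LINE and SINE families) had a log2 ratio of 0.14 in repeat CPM and -0.10 as a share of transposable element and satellite counts, and the Alu names (46 names, the abundant primate SINEs) had 0.18 and -0.07. Scaled to gene counts, the class total followed the L2 and MIR total over cells with a Spearman rho of 0.987 in 25 ffEPSC cells and 0.965 in 16 ESC cells, and the Alu total with 0.962 in ffEPSC cells and 0.959 in ESC cells. These points share a library and its share of repeat reads, so the correlations are a description only.

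Tigger and Charlie names held most of the class. The 45 Tigger names summed to 7704 repeat CPM in ffEPSCs and 7212 in ESCs, which was 52.8% and 53.4% of the class. The 46 Charlie names summed to 5244 repeat CPM in ffEPSCs and 4610 in ESCs, 35.9% and 34.2% of the class. HSMAR followed with 546 repeat CPM in ffEPSCs and 605 in ESCs, and Kanga with 294 and 259. The MADE names were at 216 repeat CPM in ffEPSCs and 179 in ESCs, the Arthur names at 159 and 147, the Zaphod names at 143 in each, and the ORSL names at 39.5 and 38.5. Cheshire was at 91.4 repeat CPM in ffEPSCs and 92.9 in ESCs, Ricksha at 80.9 and 108, and Looper at 69.4 and 98.8. The order of the 7 groups from Tigger to Zaphod was the same in both states, whereas Cheshire was above Ricksha and Looper in ffEPSCs and below both in ESCs.

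The name groups differed little between states. In repeat CPM, MADE (log2 ratio 0.27), Charlie (0.19), Kanga (0.18), Arthur (0.11) and Tigger (0.10) were higher in ffEPSCs, and Zaphod (0.00), Cheshire (-0.02) and ORSL (0.03) had counting intervals that include 0. HSMAR (-0.15), Ricksha (-0.42) and Looper (-0.50) were lower. As a share of transposable element and satellite counts, MADE was at 0.03 and the 10 other groups were below 0, with Looper at -0.75 and Ricksha at -0.66.

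**Figure D2:**
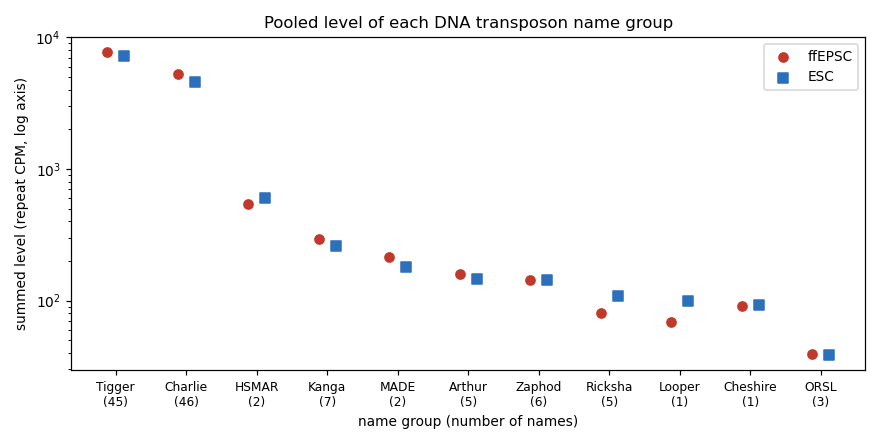
Summed pooled level of each name group in repeat CPM on a log axis, with the number of names in brackets, for the ffEPSC library (circles, left of each pair) and the ESC library (squares). Tigger and Charlie lie far above the rest in both, and Looper and Ricksha are the groups with the widest gap, lower in ffEPSCs.

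Of the 123 names, 44 reached 100 repeat CPM in at least 1 library and are called measured here, and each of them had counts in all 41 cells. At least 2-fold differences were seen for 0 of the 44 in either direction. Among all 558 repeat names at this level 4.66% were at least 2-fold higher in ffEPSCs and 0.358% at least 2-fold lower, and among the 395 names of transposable elements and satellites 3.8% and 0.506%. Of the 44, 35 had a ratio above 0 and 9 below, against 81% above 0 among those 395 names. The median log2 ratio was 0.15 over the 44 and 0.18 over the 395. On the scale of transposable element and satellite counts, 17 of the same 44 were higher and 27 lower, with a median of -0.09. With the floor of 100 CPM set on that scale too, 86 DNA transposon names passed, 29 higher and 57 lower, with a median of -0.12. Among all 600 names that passed it, 36.3% were above 0 and the median was -0.09.

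**Figure D3:**
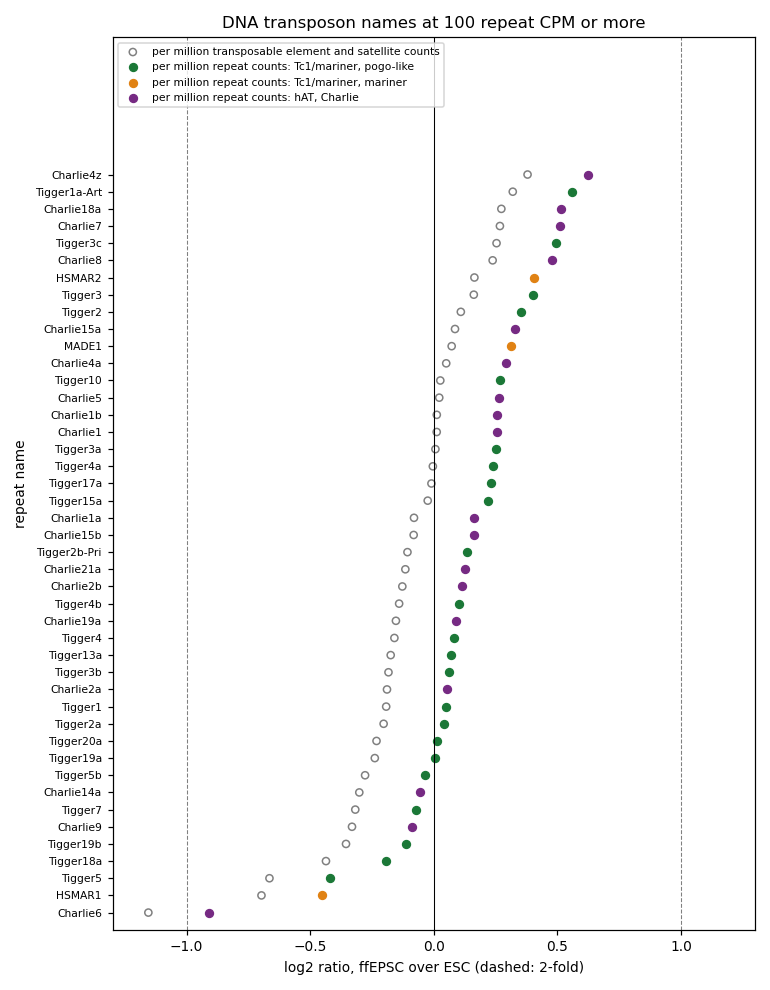
Log2 ratio of ffEPSC over ESC for the 44 measured names, sorted, with filled points scaled to repeat counts (coloured by superfamily) and open points scaled to transposable element and satellite counts. Charlie6 stands apart at the low end, at -0.91 on the first scale and -1.15 on the second, and the highest point is Charlie4z at 0.62.

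Charlie6, a hAT element, was the name with the lowest ratio among the 44. It stood at 157 repeat CPM in ffEPSCs (95% interval 156 to 159) and 296 repeat CPM in ESCs (293 to 299), a log2 ratio of -0.91 (-0.94 to -0.89 without the added 1 CPM), or 1.88-fold lower. It was chosen for description as a lower member, so its direction is not a finding by itself. Per cell it ran from 65.8 through a median of 158 to 366 repeat CPM in ffEPSC cells, and from 141 through 336 to 564 repeat CPM in ESC cells. The states overlapped, but 24 of the 25 ffEPSC cells lay below the ESC median, 12 of them below the lowest ESC cell, and 7 of the 16 ESC cells lay above the highest ffEPSC cell.

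Charlie6 was lower in each ffEPSC set than in both ESC sets. Since it was chosen as a lower member, these splits of the same cells describe the difference and do not test it. Pooled levels were 153, 222, 151 and 110 repeat CPM in ffEPSC sets 1 to 4, against 336 and 271 repeat CPM in ESC sets 1 and 3. The log2 ratio was -1.13 within set 1 and -0.83 within set 3, where only 3 and 2 ffEPSC cells stand behind it. The highest cell gave 8.44% of the ffEPSC counts of this name and 8.49% of the ESC counts. The ratio passed 2-fold as a share of transposable element and satellite counts (-1.15), where 2% of the 600 names were lower by 2-fold or more and 2.5% were higher by as much, and when medians of cells were compared (-1.08). The set numbers and the states are only partly separable, since sets 2 and 4 hold no ESC cell.

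Which loci gave the Charlie6 reads is not recorded, because the tables sum all copies of a name. Scaled to gene counts, the genes that ran most closely with Charlie6 within both states were ZNF480, with a Spearman rho of 0.53 over 25 ffEPSC cells and 0.48 over 16 ESC cells, GON7 with 0.48 and 0.61, and UBE2Q2 with 0.48 and 0.47. These are the highest of 9405 genes compared, share their cell with the repeat, and none had a level that differed as Charlie6 did: ZNF480 was at 143 CPM in ffEPSCs and 131 CPM in ESCs. GON7 was at 32.8 CPM in ffEPSCs and 32.6 CPM in ESCs, and UBE2Q2 at 34.1 and 20.6 CPM.

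Of the other Charlie names, most were slightly higher in ffEPSCs in repeat CPM. Of 18 measured Charlie names 15 had a ratio above 0 and 3 below, with a median of 0.21 (on the scale of transposable element and satellite counts 9 were above and 9 below). This was close to the 395 transposable element and satellite names at that level, with 81% above 0 and a median of 0.18 in repeat CPM. Besides Charlie6 only Charlie9 (-0.09) and Charlie14a (-0.06) were below. Charlie4z was highest, at 408 repeat CPM in ffEPSCs and 265 in ESCs, a log2 ratio of 0.62. Its cells ran from 230 through 413 to 674 repeat CPM in ffEPSCs and from 147 through 280 to 381 repeat CPM in ESCs. The ranges overlapped, with 22 of the 25 ffEPSC cells above the ESC median and 15 above every ESC cell. Charlie4z was also higher as a share of transposable element and satellite counts (0.38), and within set 1 (0.71) and set 3 (0.58). Charlie18a (128 repeat CPM in ffEPSCs and 89.2 in ESCs, 0.51), Charlie7 (214 and 150, 0.51) and Charlie8 (188 and 134, 0.48) followed, and these 3 and Charlie4z stayed above 0 in the 9 alternative settings tried. Names of 1 numbered family could differ in the size of the ratio. Charlie4z was at 0.62, Charlie4a at 0.29 and Charlie4, below the floor, at 0.21, all above 0. Charlie1, Charlie1a and Charlie1b lay closer together, between 0.16 and 0.25 (between -0.08 and 0.01 on the other scale). Charlie1a was the most abundant of all Charlie names, at 522 repeat CPM in ffEPSCs and 466 in ESCs.

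Of the mariner names, HSMAR1 was lower and HSMAR2 higher in ffEPSCs over all cells. In repeat CPM, HSMAR1 turned within set 3. HSMAR2 turned within sets 1 and 3 only as a share of transposable element and satellite counts. HSMAR1 was at 314 repeat CPM in ffEPSCs and 431 in ESCs (log2 ratio -0.45), and HSMAR2 at 232 in ffEPSCs and 175 in ESCs (0.41). HSMAR1 ran from 158 through 292 to 482 repeat CPM in ffEPSC cells and from 236 through 398 to 763 in ESC cells. HSMAR2 ran from 91.7 through 239 to 413 repeat CPM in ffEPSC cells and from 77.1 through 167 to 546 in ESC cells. For both names the cells of the states overlapped widely, and 5 ESC cells were above every ffEPSC cell in HSMAR1. Within sets, HSMAR1 was at -0.46 in set 1 but 0.21 in set 3, while as a share of transposable element and satellite counts each ffEPSC set (653, 625, 1117 and 848 CPM on that scale in sets 1 to 4) was below both ESC sets (1298 and 1174 CPM in sets 1 and 3). HSMAR2 was above 0 in repeat CPM within set 1 (0.31) and set 3 (0.14). As a share of transposable element and satellite counts HSMAR2 was higher over all cells (0.16), but lower within set 1 (443 CPM on that scale in ffEPSCs and 516 in ESCs) and within set 3 (439 and 484). In set 3 both names were thus above 0 in repeat CPM, and on the other scale both were lower in ffEPSCs in sets 1 and 3. MADE1, the short derivative of HSMAR1, was at 140 repeat CPM in ffEPSCs and 113 in ESCs (0.31), with cell medians of 114 repeat CPM in each state. MADE2 had a log2 ratio of 0.18.

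**Figure D4:**
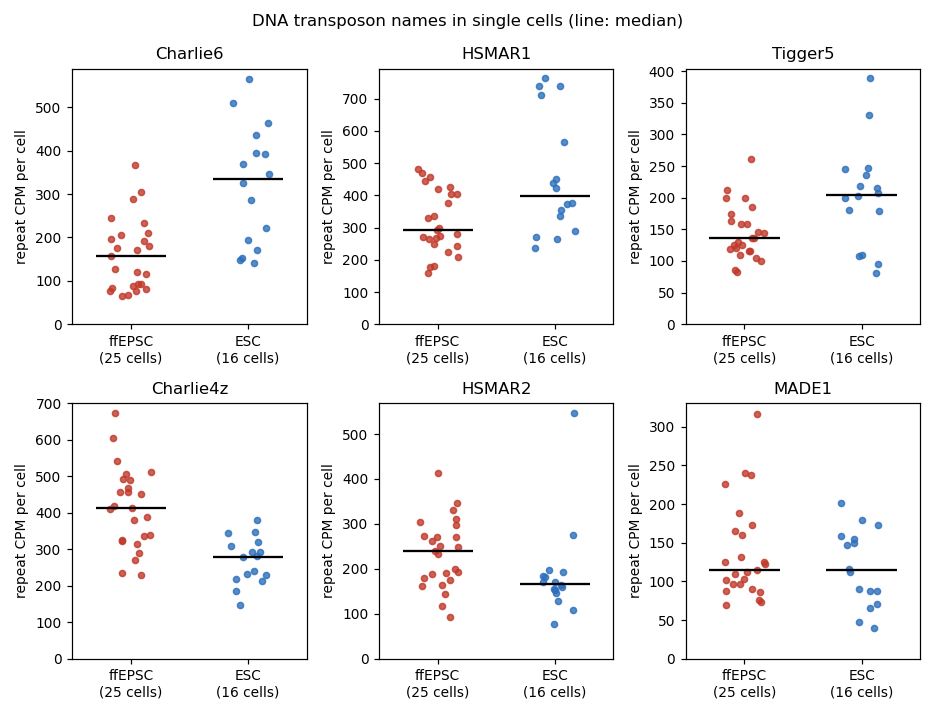
Level per cell in repeat CPM of Charlie6, HSMAR1 and Tigger5 (top) and Charlie4z, HSMAR2 and MADE1 (bottom), with 1 point per cell, ffEPSC left of ESC in each panel, and a line at the median. For Charlie6 the medians are 158 in ffEPSC and 336 in ESC cells, and for MADE1 both medians are 114.

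Among Tigger names, 18 of 23 measured names had a ratio above 0 in repeat CPM, with a median of 0.08, a share close to the 81% among transposable element and satellite names. On the scale of transposable element and satellite counts the majority was the other way, with 6 of the 23 above 0 and 17 below and a median of -0.16. Tigger1, the most abundant DNA transposon name in both libraries, was at 1484 repeat CPM in ffEPSCs and 1432 in ESCs, a log2 ratio of 0.05. It had no stable direction, since its cell medians were 1376 repeat CPM in ffEPSCs and 1609 in ESCs. Tigger1a-Art (127 repeat CPM in ffEPSCs and 85.8 in ESCs, 0.56) and Tigger3c (207 and 146, 0.50) were the highest. Within sets, Tigger1a-Art was at 0.35 in set 1 and 0.11 in set 3. As a share of transposable element and satellite counts it was higher over all cells (0.32). On that scale it was lower within set 1 (205 CPM in ffEPSCs and 231 in ESCs) and set 3 (227 and 255). Tigger3c was higher within both on that scale (510 and 447 in set 1, 578 and 394 in set 3). The 5 Tigger3 names were all above 0 in repeat CPM, from 0.06 for Tigger3b to 0.51 for Tigger3d, which lay below the floor. As shares of transposable element and satellite counts they ran from -0.18 for Tigger3b to 0.28 for Tigger3d. Tigger3 itself (0.40) was the most uneven measured name between ffEPSC cells, with a coefficient of variation of 65.3%, and 1 cell gave 24.7% of its ESC counts.

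Tigger5 was the lowest Tigger name measured, at 141 repeat CPM in ffEPSCs and 189 in ESCs (-0.42). Its cells ran from 82.3 through 136 to 260 repeat CPM in ffEPSCs and from 81.5 through 205 to 389 repeat CPM in ESCs. The full ranges overlapped, but 23 of the 25 ffEPSC cells lay below the ESC median. Tigger5 was lower within set 1 (-0.77) and set 3 (-0.13). The related Tigger5b was at -0.03, Tigger18a at -0.19, Tigger19b at -0.11 and Tigger7 at -0.07. Of these, only Tigger19b was lower within both set 1 (-0.30) and set 3 (-0.19). Tigger7 was above 0 within set 1 (0.11) and set 3 (0.34), and Tigger18a within set 3 (0.42). Tigger5b was higher in ffEPSCs within set 3 (245 repeat CPM in ffEPSCs and 197 in ESCs).

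The 79 names under the floor were 53 above 0 and 26 below 0, with log2 ratios from -0.77 (Charlie11, 26.5 repeat CPM in ffEPSCs and 45.9 in ESCs) to 0.91 (Tigger6b, 5.56 and 2.49 repeat CPM), so 0 of all 123 passed 2-fold. The matching shares over all repeat names under the floor were not counted. Looper, the single piggyBac name, was at 69.4 repeat CPM in ffEPSCs and 98.8 in ESCs (-0.50), but 1 cell gave 18.1% of its ESC counts, and it was at 0.11 within set 1. Ricksha-c, a Mutator-like name, was at 35.7 repeat CPM in ffEPSCs and 49.5 in ESCs (-0.46), and Ricksha at 22.5 and 38.4 (-0.75). Kanga2-a (0.15), Arthur1B (0.10), Zaphod2 (-0.14), Cheshire (-0.02) and ORSL (-0.04) were the most abundant names of their groups. Each of these changed sign in at least 1 alternative setting. ORSL was above 0 within set 1 (0.17) and set 3 (0.62), Zaphod2 within set 3 (0.55) and Cheshire within set 1 (0.47). As shares of transposable element and satellite counts, Kanga2-a was at -0.09 and Arthur1B at -0.14. For 3 names of low level (Zaphod5b, Charlie7b-Mars and Tigger1a-Mars) more than 50% of the counts of a library came from 1 cell. No name of the 123 separated the cells of the states.

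Spread between cells of 1 state was larger than most of these differences. The coefficient of variation of the 44 measured names ran from 19.3% to 65.3% between ffEPSC cells (median 35.7%) and from 23.8% to 71.5% between ESC cells (median 34.6%). As shares of transposable element and satellite counts, each measured name was set against the sum of the other DNA transposon names. The median Spearman rho was 0.22 over ffEPSC cells (-0.43 to 0.67) and 0.33 over ESC cells (-0.43 to 0.79). Charlie6 (0.05 in ffEPSC and -0.20 in ESC cells) and HSMAR1 (0.02 and -0.25) lay below both medians, and Tigger4a (0.67 in ffEPSC cells) and Tigger3b (0.79 in ESC cells) were the names at the upper end.

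Genes that descend from DNA transposases were looked at in the gene tables, where levels are scaled to total gene counts (CPM). Such genes have kept a transposase or its DNA-binding part for another use in the host. Of 35 genes on the list 31 were found and 20 reached 5 CPM in at least 1 library. Of these 20, 1 was at least 2-fold higher in ffEPSCs and 1 at least 2-fold lower, against 8.3% and 5.84% of 10825 genes at that level, and 13 were above 0 and 7 below. The median log2 ratio was 0.19 over the 20 and 0.04 over all those genes. The share of all those genes above 0 was not counted. Counts above and below 0, here and by gene type, are therefore descriptions only. Directions often turned between the sets that hold both states, a comparison added after the data were seen: 2 of the 13 were above 0 and 4 of the 7 below 0 within both set 1 and set 3.

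The lower gene was SETMAR (chromosome 3, 4303304 to 4317567 on GRCh38 in GENCODE 29), which joins a histone methyltransferase domain to the transposase of an HSMAR1 copy. SETMAR was at 10.4 CPM in ffEPSCs (95% interval 10.1 to 10.7) and 34.0 CPM in ESCs (33.3 to 34.7), a log2 ratio of -1.62, or 3.08-fold lower. Its cells ran from 0 through a median of 4.07 to 52.1 CPM in ffEPSCs and from 7.85 through 31.4 to 59.9 CPM in ESCs. All 16 ESC cells had SETMAR counts and 16 of 25 ffEPSC cells did, and 14 ffEPSC cells lay below the lowest ESC cell. The ratio was -5.35 within set 1 and -0.41 within set 3, so its size is not fixed by these cells. Every ffEPSC cell of set 1 was at 0 CPM, so the size of -5.35 depends on the added 1 CPM. In set 3 the ffEPSC counts came from 1 cell (42.3 CPM), and the other was at 0 CPM. SETMAR and HSMAR1 were both lower in ffEPSCs, but over cells within a state they ran together only weakly (Spearman rho 0.10 over 25 ffEPSC cells and 0.28 over 16 ESC cells).

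Among genes related to pogo and Tigger, 6 of 7 measured genes were above 0: TIGD2 (12.5 CPM in ffEPSCs and 7.02 in ESCs, 0.75) and TIGD7 (5.47 and 3.75, 0.45) were highest, while POGZ, a chromatin protein that binds HP1, was at 37.5 CPM in ffEPSCs and 35.4 in ESCs (0.08), and POGK at 34.8 and 33.0 (0.08). Of these 6 only TIGD2 was also above 0 within both shared sets (0.90 in set 1 and 0.72 in set 3). TIGD1 (-0.45) and TIGD7 (-0.40) were below 0 within set 1, and POGK (-0.14), POGZ (-0.80) and JRKL (-2.11) within set 3. Among hAT related genes 4 of 7 were above 0, of which only ZBED9 was so within both shared sets. ZBED9, listed as SCAND3, was the gene at least 2-fold higher (8.04 CPM in ffEPSCs and 3.44 in ESCs, 1.02), but 12 of 25 ffEPSC cells and 10 of 16 ESC cells had any count and the ratio was 0.27 within set 1 and 1.85 within set 3. Its cell median was 0 CPM in ffEPSCs and 1.11 CPM in ESCs. An ffEPSC cell was above an ESC cell in 50% of all pairs, with ties split evenly. ZBED8, listed as FAM200C, was at 11.9 CPM in ffEPSCs and 23.7 in ESCs (-0.93), but at 0.03 within set 1 and -0.59 within set 3. ZBED5, the most abundant of the list, was at 120 CPM in ffEPSCs and 106 in ESCs (0.18), with 0.20 within set 1 and -0.07 within set 3. Of the piggyBac related genes PGBD1 was at 0.72 over all cells, but at -0.29 within set 1 and 1.95 within set 3. PGBD2 (-0.41) and PGBD5 (-0.12) were below 0 within both sets as well. GTF2IRD2, which carries a Charlie8-derived transposase, was nearly unread, at 0.23 CPM in ffEPSCs and 0.32 CPM in ESCs, and its near-identical copy GTF2IRD2B can take a part of its reads. HARBI1, a Harbinger-derived nuclease gene, was at 0.53 over all cells but at -0.40 within set 1 and -0.06 within set 3. THAP9, a relative of the P element transposase, was at 0.29, with 0.36 within set 1 and -0.19 within set 3.

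**Figure D5:**
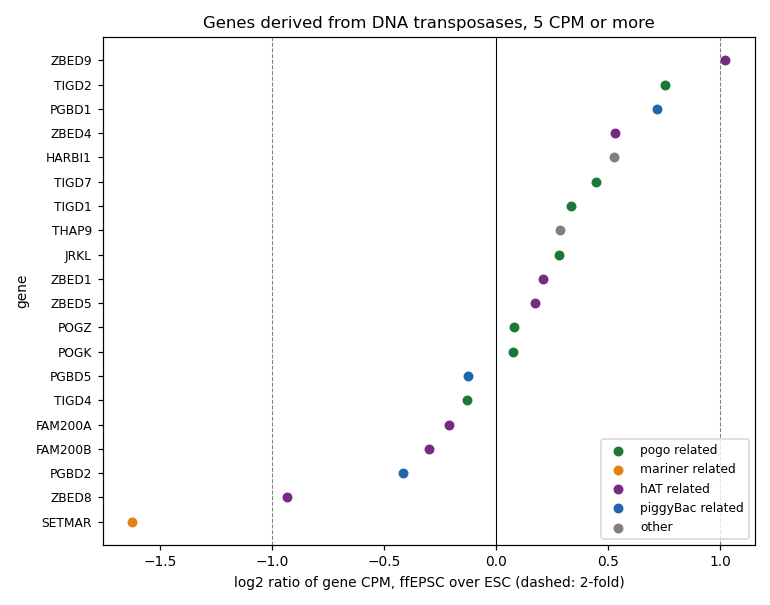
Log2 ratio of gene CPM, ffEPSC over ESC, for the 20 transposase-derived genes at 5 CPM or more, coloured by the transposon type they descend from. SETMAR lies at -1.62 and ZBED9 at 1.02, and the 18 others lie within the dashed 2-fold lines.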

How the data were processed

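Single-cell counts of genes and of repeat names were used from 1 ffEPSC and 1 ESC sample, grouped by the cell type in the labels. The authors deposited whole-number counts without normalization, with 1 column per cell. Per the submitters' processing notes, the tools were HISAT2 2.2.1, Subread 2.0.6 with featureCounts, SAMtools 1.6 and bcl2fastq, on T2T-CHM13 and GRCh38. For the repeat library, multiply mapping reads and strand no setting is named in these notes, and reads of young or near-identical copies are the most exposed to this. Non-zero gene counts were even in 98.4% of cases in ffEPSCs and 98.5% in ESCs (repeats 49.4% and 49.7%), so gene intervals are too narrow.

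Counts were summed over cells and divided by total repeat counts, or gene counts for genes. Ratios are log2 after adding 1 CPM. Poisson intervals for levels and conditional binomial intervals for ratios without the added 1 are exact, at 95%, and cover counting error only. Measured means 100 repeat CPM (5 CPM for genes) in at least 1 library. Transposable elements and satellites were told from ribosomal and other RNA genes, simple repeats and composites by name alone. Superfamilies are textbook assignments. Members, lists and settings were chosen with earlier results of these data known, and settings added later are named as such. Named members were those past 2-fold, the 8 highest and 8 lowest measured ratios, the most abundant of each name group and Charlie6, and others (Charlie11, Tigger6b, Ricksha, family members, low names) were named after their values were seen. The 3 genes nearest to Charlie6 had the highest lower value of the 2 within-state rhos. Older gene symbols were matched through RefSeq synonyms. Only the pooled log2 ratio in repeat CPM was tried on simulated counts with known ratios. Intervals, other totals, sets and correlations were not part of that trial. Python 3.11.15, pandas 2.3.3, numpy 2.4.6 and scipy 1.17.1 were used.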

Additional observations from a re-analysis of the deposited data

How the results depend on the processing

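Alternatives were other totals, a pseudocount of 0.1, floors of 20 CPM or none, means or medians of cells, cells of set 1 or set 3 only, leaving out the 4 ESC cells lowest in POU5F1 (the class stood at 13532 to 23758 repeat CPM in them), and leaving out the highest cell of each name. The summed class had a log2 ratio of 0.11, and 0.091 with gene totals, 0.086 without the highest cells, 0.038 for means and -0.015 for medians of cells, 0.48 in set 1, 0.22 in set 3 and 0.20 without the 4 ESC cells. It was -0.13 with the transposable element and satellite total and -0.085 with a total without the small-subunit ribosomal RNA, a setting added after the data were seen, so its sign follows the total used. The median over measured names (0.15, 44 names) was taken with the floor applied anew in each setting, so the names behind it differ. It was 0.14 with gene totals (22 names) and -0.12 with the transposable element and satellite total (86 names). At a floor of 20 it was 0.13 (97 names), and with no floor 0.12 (123 names). For means of cells it was 0.056 (47 names), for medians of cells 0.059 (45 names), in set 1 0.56 (59 names) and in set 3 0.28 (45 names). Leaving out the 4 ESC cells gave 0.28 (44 names), and leaving out the highest cells 0.16 (41 names). The count of names at least 2-fold higher (0) was 3 in set 1 (Charlie10, Charlie17 and Tigger9b) and 1 in set 3 (Tigger3). The count at least 2-fold lower (0) was 3 with the transposable element and satellite total (Charlie6, Charlie11 and Ricksha), 1 for medians of cells and 1 in set 1, both Charlie6. For medians of cells and for single sets the matching shares over all repeat names were not counted. Charlie6 (-0.91), chosen as a lower member, was below 0 in every setting, which describes its ratio and does not test its direction. It was at -1.15 with the transposable element and satellite total and -1.11 without the small-subunit ribosomal RNA. For means of cells it was at -0.99, for medians of cells at -1.08, in set 1 at -1.13 and in set 3 at -0.83. Of 25 other named members, 12 kept their sign in the 9 settings that apply to them and 13 changed it in at least 1. For shifts with other cells the cause was not tested. No paired analysis was possible because each state is 1 deposited sample. Each of the 123 names had at least 59 counts per library, and the number of samples, 1 per state, is the main limit.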

Other observations

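By the same rule as for Charlie6, applied after the data were seen, the gene whose level ran most closely with the summed DNA transposon names, scaled to gene counts, was FIRRE, a nuclear long non-coding RNA of the X chromosome, with a Spearman rho of 0.71 over 25 ffEPSC cells and 0.69 over 16 ESC cells. FIRRE stood at 57.8 CPM in ffEPSCs and 111 CPM in ESCs. PLEKHA5 (0.61 in ffEPSC and 0.78 in ESC cells) and ZRANB2, a splicing factor gene (0.61 and 0.80), came next. For HSMAR1 the nearest genes were GALNT1 (0.63 in ffEPSC and 0.71 in ESC cells), NUTM2A-AS1 (0.64 and 0.61) and MKRN1 (0.54 and 0.55). They are the highest of 9405 genes compared and share their cells with the repeats, so they are descriptions only.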
